A study of Mus musculus with 7 samples.

Results

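The genes described here are 10 members of the mouse Galnt family, Galnt1, Galnt2, Galnt3, Galnt7, Galnt9, Galnt10, Galnt11, Galnt13, Galnt14 and Galnt16, out of 16144 genes tested. They were taken by symbol, and the family was chosen by the log2 signal of Galnt14, which was lower in the mutant neocortex. Each member had 1 probe set, and all 10 lay above the brightness floor, so none was counted as dim. Galnt3 and Galnt13 lay nearest to the floor, at percentiles 30.6 and 33.3 of all probe sets. Gene expression had been measured as log2 signal normalized with RMA, in whole neocortex of C57BL/6 mice, on 1 Affymetrix array per sample. The brightness floor was the 25th percentile of all probe sets. In 4 samples, named CKO, the genotype label joins COUP-TFI with Nex-Cre, and 3 samples were wild type (WT). COUP-TFI is the orphan nuclear receptor encoded by Nr2f1, which patterns neocortical areas, and Nex-Cre is a recombinase driven from the Neurod6 locus in postmitotic glutamatergic neurons, so other cells of the tissue would keep an unrecombined gene. The labels do not say whether the WT samples carried Cre or an unrecombined allele, give no age, and do not tie the arrays to individual mice. The p-values therefore cover only the variation among these arrays, some of which may be technical. Each array is named by its group and its label number.

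GalNAc-transferases of this family start mucin-type O-glycosylation. In the Golgi they move N-acetylgalactosamine (GalNAc) from UDP-GalNAc onto serine or threonine of secreted and membrane proteins. Most pair a catalytic domain with a lectin domain, their acceptor preferences overlap in part, and some act only on peptides that already carry a sugar. Other enzymes then extend the first sugar with galactose, N-acetylglucosamine and sialic acid.

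The promoters of Galnt14 and Galnt13 are shown because these were the members with the largest and the smallest difference between the genotypes. They are RefSeq sequences of build GRCm38.p6, the 250 bases before the annotated start, from 5′ to 3′ in the direction of the gene. Galnt14 lies on the minus strand at chr17:73710452-73710701 and Galnt13 on the plus strand at chr2:54436137-54436386. Capitals mark each match to the GC box GGGCGG on either strand.
Galnt14: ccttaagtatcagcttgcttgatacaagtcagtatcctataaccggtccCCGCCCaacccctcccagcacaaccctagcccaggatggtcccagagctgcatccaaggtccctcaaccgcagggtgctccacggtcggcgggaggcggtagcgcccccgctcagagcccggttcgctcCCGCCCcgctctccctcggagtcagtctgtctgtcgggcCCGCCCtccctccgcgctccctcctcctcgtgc
Galnt13: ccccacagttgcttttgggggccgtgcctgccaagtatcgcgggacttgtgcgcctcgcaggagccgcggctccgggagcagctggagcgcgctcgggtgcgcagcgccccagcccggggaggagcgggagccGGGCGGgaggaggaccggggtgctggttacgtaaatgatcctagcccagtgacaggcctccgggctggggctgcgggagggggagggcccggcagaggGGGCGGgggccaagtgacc
The Galnt14 window had 3 matches to GGGCGG, all on the strand opposite to the one printed, and the Galnt13 window had 2. This motif was found in 32.7% of the 32851 promoters of the same length. Of the other members matched, Galnt3, Galnt7, Galnt9 and Galnt11 had it in a window, and Galnt10 and Galnt16 did not. The printed windows were 66.4% (Galnt14) and 73.6% (Galnt13) G or C. The half-site AGGTCA, the letters that COUP-TF receptors bind as repeats, was in neither window, nor in any of the 12 windows of the 8 members matched (Galnt1 and Galnt2 were not). It was found in 14% of all promoters. Its direct repeat with a spacer of 1 base was in 0.0335% of them and in no member's window. CCAAT (33.8% of all promoters) and TATAAA (12.4%) were in neither printed window. None of the matches shown overlapped a match to another motif. A match is only a run of letters, and which start the neocortex uses was not measured.

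Galnt14 was the member with the largest difference between the genotypes. It is the closest in family to Galnt2 and Galnt16 and is known from tumour cells, where it glycosylates death receptors. Its log2 signal (probe set 10452793) was 8.20 on CKO 1, 7.78 on CKO 4, 7.93 on CKO 34 and 8.04 on CKO 43. On the WT arrays it was 8.48 on WT 6, 8.96 on WT 27 and 8.69 on WT 38. The groups did not overlap: CKO 1, the highest CKO array, lay below WT 6, the lowest WT array. The mean was 7.99 ± 0.179 over the CKO arrays (SD, n = 4) and 8.71 ± 0.240 over the WT arrays (SD, n = 3). CKO minus WT was -0.73 (limma SE 0.126), or 0.605 of the WT signal, with a 95% interval from -1.02 to -0.44. Because the family was picked for this difference, it is a description and carries no test. It ranked 18 by size among all 16144 genes, and 10 genes had a larger fall. For scale, 2.99% of genes had all CKO arrays below all WT arrays, and nothing is read from that share since the choice of genes used this contrast. In bulk tissue, fewer cells that make the transcript and less of it per cell cannot be told apart.

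**Figure D1:**
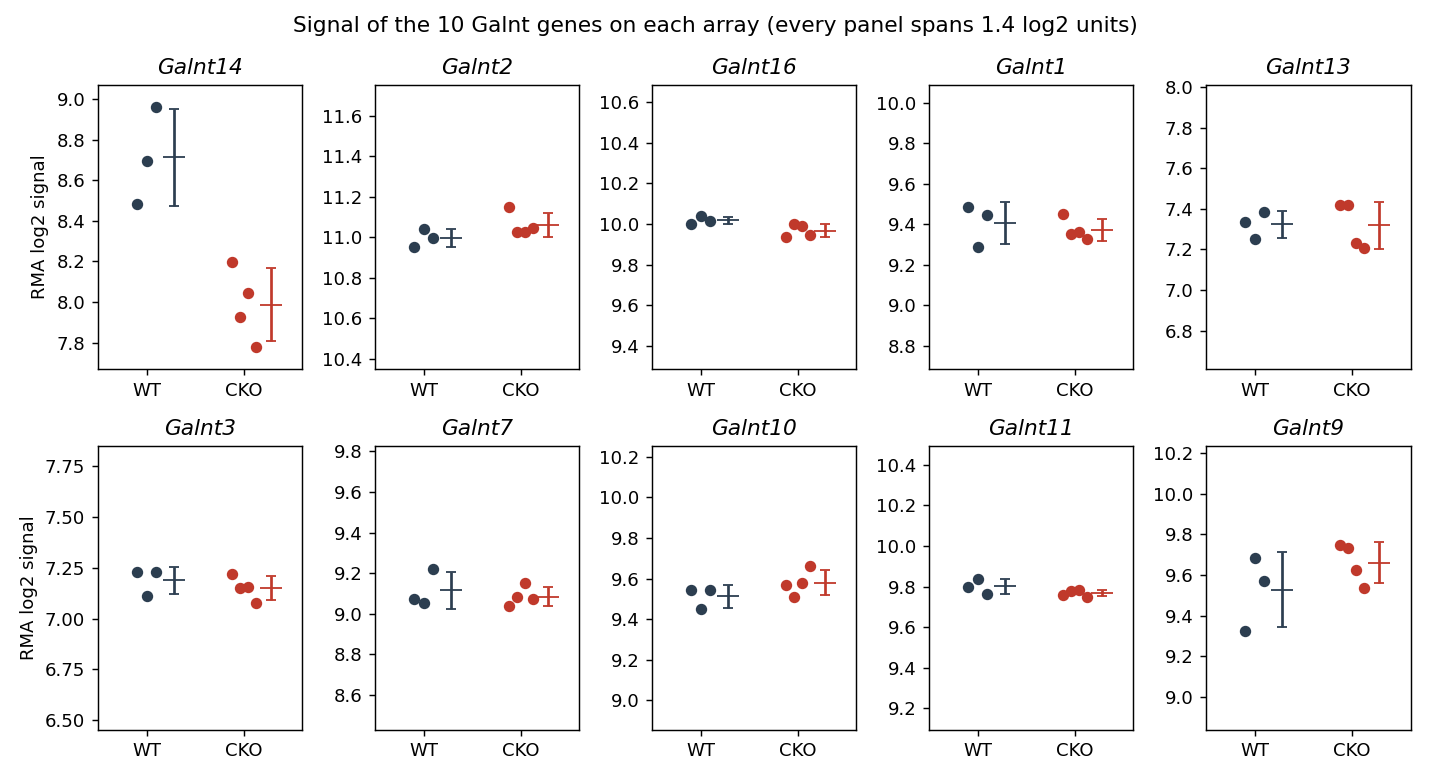
RMA log2 signal (vertical axis) of each of the 10 Galnt genes on 3 WT and 4 CKO arrays (points), with the group mean and SD as a bar beside them; each panel covers the same width in log2 units at its own level. Galnt14 runs from 7.78 to 8.20 in CKO and from 8.48 to 8.96 in WT, while the groups of the other genes lie close together.

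The 9 other members showed small differences, and none passed the threshold of an adjusted p of 0.05 in limma, where 0.0248% of all genes did. None had an unadjusted p under 0.05 either, a level reached by 6.79% of genes (4.17% higher and 2.61% lower in CKO). The differences ran from -0.05 to 0.13 on the log2 scale, with a median of -0.03 against 0.01 over all genes, 3 of them positive and 6 negative; among all genes 41.1% were negative. Their adjusted p-values lay between 0.755 and 0.987. The 95% intervals of the 9 differences stayed between -0.16 and 0.34. None of these intervals reached the difference of Galnt14, but the family was picked for that value, so nothing is read from this contrast. These intervals allow small changes in either direction, so they do not show that any of the 9 was the same in both genotypes. Without WT 38, 1 of the 9, Galnt9, had an unadjusted p under 0.05.

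Of the pair in the same subfamily as Galnt14, Galnt16 differed slightly downwards and Galnt2 slightly upwards. Galnt16 was at 9.934 on CKO 1, 9.946 on CKO 4, 9.999 on CKO 34 and 9.990 on CKO 43, and at 10.002 on WT 6, 10.014 on WT 27 and 10.037 on WT 38. The groups did not overlap, by the margin between CKO 34 and WT 6, but the difference was only -0.05 (SE 0.036, 95% interval -0.13 to 0.03). Galnt16 was the 1 member of these 9 without overlap, beside 8.38% of all genes (2.99% lower and 5.39% higher in CKO). Galnt2, a broadly expressed transferase, was at 11.15 on CKO 1, 11.04 on CKO 4, 11.02 on CKO 34 and 11.03 on CKO 43. It was at 10.95 on WT 6, 10.99 on WT 27 and 11.04 on WT 38. The groups overlapped, and the difference of 0.06 (SE 0.046, 95% interval -0.04 to 0.17) fell to 0.01 within the arrays of lot 2, described below.

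Galnt1 and Galnt13, a pair of close relatives, did not differ detectably. Galnt1 is a widely expressed transferase, and Galnt13 is known as a neuronal enzyme that can glycosylate syndecan-3. Galnt1 was at 9.45 on CKO 1, 9.33 on CKO 4, 9.35 on CKO 34 and 9.36 on CKO 43, and at 9.49 on WT 6, 9.45 on WT 27 and 9.29 on WT 38. WT arrays were both the highest and the lowest. Galnt1 had a mean of 9.37 ± 0.055 over the CKO arrays (SD, n = 4) and 9.41 ± 0.104 over the WT arrays (SD, n = 3), a difference of -0.03 (SE 0.057). Galnt13 was at 7.42 on CKO 1, 7.21 on CKO 4, 7.42 on CKO 34 and 7.23 on CKO 43, and at 7.34 on WT 6, 7.39 on WT 27 and 7.25 on WT 38. The 4 CKO values enclosed all 3 WT values, and the difference was -0.01 (SE 0.067, 95% interval -0.16 to 0.15).

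Galnt9 had the largest difference after Galnt14, and in the other direction. It is a brain-enriched member of a branch of the family with little known activity on standard peptides. Its log2 signal was 9.75 on CKO 1, 9.53 on CKO 4, 9.73 on CKO 34 and 9.62 on CKO 43, and 9.32 on WT 6, 9.57 on WT 27 and 9.69 on WT 38. WT 6 was the lowest array, and both WT 27 and WT 38 lay among the CKO arrays. The difference was 0.13 (SE 0.089, adjusted p 0.755), and it was 0.03 without WT 6, 0.21 without WT 38 and 0.05 within lot 2.

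The remaining members were Galnt3, which protects the hormone FGF23 from cleavage, Galnt7 and Galnt10, which prefer peptides that already carry GalNAc, and Galnt11, which glycosylates linkers in receptors of the LDL receptor family. Galnt10 was at 9.57 on CKO 1, 9.66 on CKO 4, 9.51 on CKO 34 and 9.58 on CKO 43, and at 9.54 on WT 6, 9.54 on WT 27 and 9.45 on WT 38. Only CKO 34 lay among the WT arrays. Galnt10 had a mean of 9.58 ± 0.062 over the CKO arrays (SD, n = 4) and 9.51 ± 0.055 over the WT arrays (SD, n = 3), a difference of 0.07 (SE 0.048). Galnt3 was at 7.22, 7.08, 7.15 and 7.15 on CKO 1, 4, 34 and 43, and at 7.23, 7.23 and 7.11 on WT 6, 27 and 38. Galnt7 was at 9.04, 9.07, 9.08 and 9.15 on the CKO arrays in that order, and at 9.07, 9.22 and 9.05 on the WT arrays. WT 38 was the lowest WT array for both of these genes. Galnt11 was at 9.76, 9.75, 9.78 and 9.78 on the CKO arrays and at 9.80, 9.76 and 9.84 on the WT arrays, with WT 27 among the CKO arrays. Galnt3 had means of 7.15 and 7.19, Galnt7 of 9.08 and 9.12, and Galnt11 of 9.77 and 9.80 in CKO and WT. Their differences were -0.04 (SE 0.050), -0.03 (SE 0.052) and -0.03 (SE 0.036), and the groups overlapped for all 4 genes of this paragraph. The level of one member is not set against that of another, because each probe set has its own affinity.

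**Figure D2:**
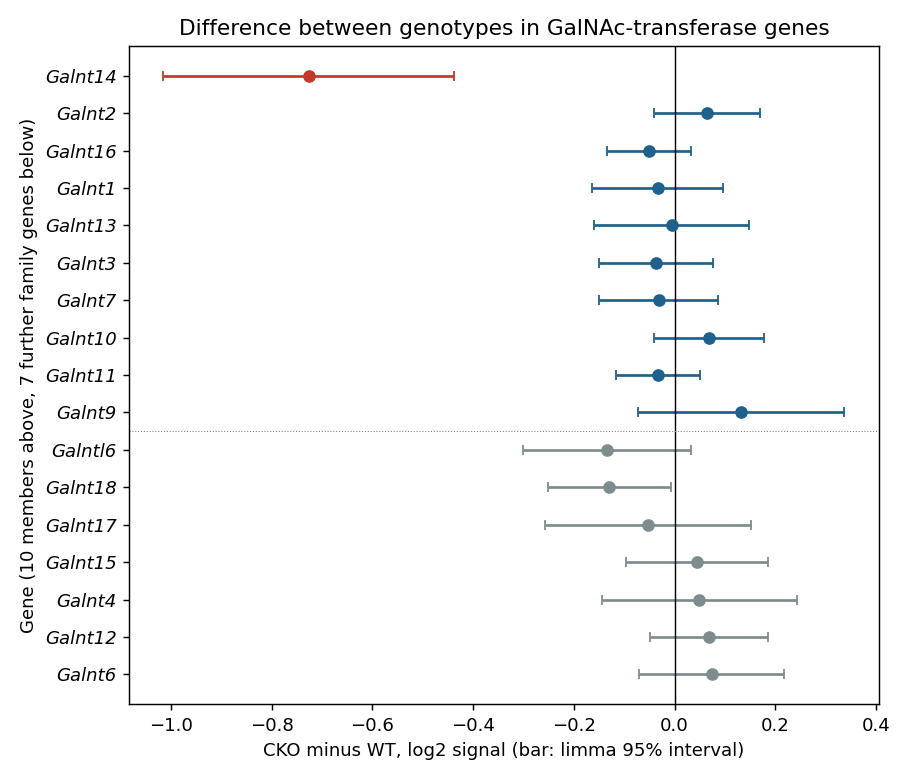
CKO minus WT in log2 signal (horizontal axis) with its limma 95% interval (bar) for the 10 members, above the dotted line, and 7 further GalNAc-transferase genes, below it. Galnt14 stands at -0.73, while the other 9 members lie between -0.05 and 0.13.

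Galnt14 was also the member whose replicates varied most within a group. Its pooled within-group SD was 0.205 on the log2 scale, above that of 97.5% of all genes, against 0.027 to 0.140 for the 9 others and a median of 0.074 over all genes. WT 27 and CKO 1 were the highest arrays of their groups, and WT 6 and CKO 4 the lowest. The other members did not follow this order closely. The Pearson correlation of their deviations from the group means with those of Galnt14, over 7 arrays, ran from -0.28 (Galnt11) to 0.65 (Galnt9), as a description of these arrays.

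Over the 7 arrays the 5 genes with the highest Pearson correlation with Galnt14 were Dguok, Amer2, Dnajc6, Asic2 and Ralgps2. Dguok encodes a mitochondrial nucleoside kinase (r = 0.984), Amer2 a membrane protein of the Wnt pathway (r = 0.983) and Dnajc6 auxilin, which uncoats clathrin vesicles in neurons (r = 0.970). Asic2 encodes an acid-sensing ion channel (r = 0.968) and Ralgps2 an exchange factor for Ral (r = 0.967). Part of each value is the step between the genotypes, which all 5 share in direction with no overlap between groups (2.99% of all genes were lower without overlap). Picking genes by likeness to Galnt14, whose groups did not overlap, favours such a step, so nothing is read from it. For the deviations from the group means alone, r was 0.911, 0.904, 0.959, 0.826 and 0.822 in the same order. The genes differ greatly in size of change. Asic2 was at 8.92 on CKO 1, 8.58 on CKO 4, 8.71 on CKO 34 and 8.64 on CKO 43, and at 9.19 on WT 6, 9.43 on WT 27 and 9.14 on WT 38, a difference of -0.54 (SE 0.094). The differences of the other 4 lay between -0.15 and -0.05, the smallest being that of Amer2 (-0.05, SE 0.033). As these genes were picked for their likeness to Galnt14 out of all genes tested, no test is given.

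**Figure D3:**
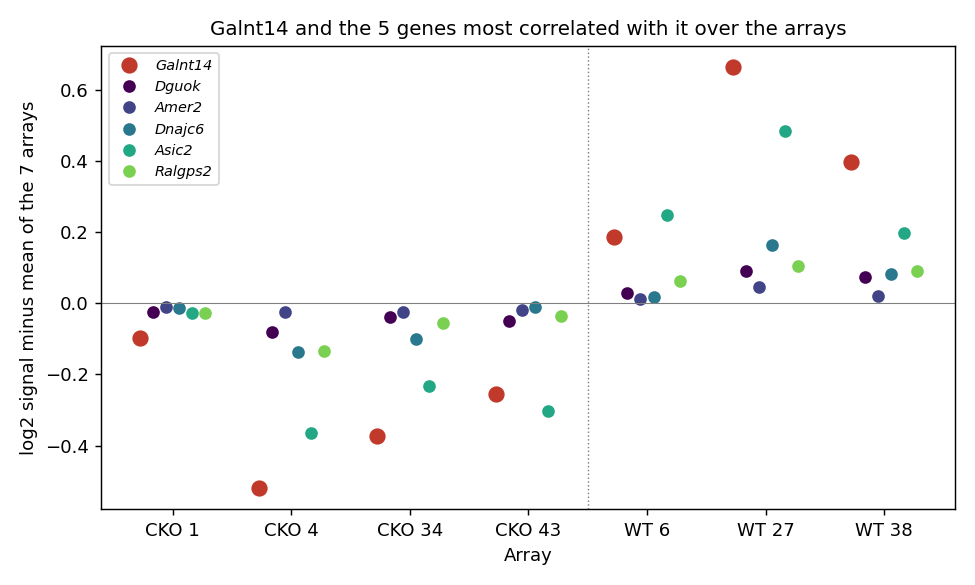
Log2 signal minus the mean of the 7 arrays (vertical axis) for Galnt14 and the 5 genes most correlated with it, by array (horizontal axis; genes are set side by side within an array). Galnt14 and Asic2 have the widest range. All 6 genes are lower on each CKO array than on each WT array, which their choice by likeness to Galnt14 favours.

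The family has further members outside the 10. Of 9 more GalNAc-transferase genes with a probe set, Galnt5 and Galntl5 were dim and 7 were tested: none passed in limma, and 1 had an unadjusted p under 0.05. This was Galnt18, of the same branch as Galnt9, with a mean of 7.47 ± 0.046 over the CKO arrays (SD, n = 4) and 7.60 ± 0.097 over the WT arrays (SD, n = 3), a difference of -0.13 (SE 0.053, adjusted p 0.726). Without WT 27 it was -0.08. Galntl6 differed by -0.13 (SE 0.073), or -0.05 without WT 38 and -0.20 within lot 2. Galnt12 differed by 0.07 (SE 0.051), or 0.03 without WT 6 and 0.12 without WT 27. The median of the 7 was 0.04.

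The enzymes that act after the first sugar were not tested as a group. Of 9 genes for core structures and their elongation, 0 passed in limma and 0 had an unadjusted p under 0.05 (median 0.01). The differences of the 9 ran from -0.03 to 0.14, 6 positive and 3 negative. These counts do not show that the 9 were the same in both genotypes. B4galt1, a galactosyltransferase, differed by 0.14 (SE 0.071), with 0.06 without WT 38 and 0.22 without WT 27. B4galt5 differed by 0.08 (SE 0.060), with 0.0079 without WT 6 and 0.14 without WT 27. B3gnt6, the core 3 enzyme, differed by 0.07 (SE 0.061), with 0.02 without WT 6 and 0.12 without WT 27, and both B4galt5 and B3gnt6 turned negative within lot 2. C1galt1, which makes core 1, and C1galt1c1, its chaperone Cosmc, differed by -0.0014 and 0.01.

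Among 10 sialyltransferase genes 0 passed in limma, while 1 gene was higher and 1 lower at an unadjusted p under 0.05. Their median difference was -0.03. St6galnac5, a brain enzyme that adds sialic acid to GalNAc, chiefly on gangliosides, was at 10.40 on CKO 1, 9.74 on CKO 4, 10.04 on CKO 34 and 10.07 on CKO 43. It was at 10.56 on WT 6, 10.47 on WT 27 and 10.47 on WT 38. CKO 4 was the lowest array, and CKO 1 lay just under the WT arrays, with no overlap between the groups. The difference was -0.44 (SE 0.130, unadjusted p 0.00956, adjusted p 0.711). St3gal1, which caps core 1 with sialic acid, was at 11.12 on CKO 1, 11.10 on CKO 4, 11.42 on CKO 34 and 11.14 on CKO 43, and at 10.78 on WT 6, 11.15 on WT 27 and 10.87 on WT 38. The groups overlapped at WT 27, and the difference was 0.27 (SE 0.107, adjusted p 0.726); it was 0.10 when the probe sets of the gene were averaged in place of taking the brightest, and 0.19 to 0.38 when 1 array was left out. St6galnac3 differed by -0.07 (SE 0.038).

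Genes for the supply and transport of sugar donors lay slightly below zero: of 14 tested, 12 were negative (median -0.03), where 41.1% of all genes were negative. The list average overlapped between the groups: relative to its mean over the arrays it was 0.05 on WT 6 and 0.03 on WT 27, but -0.03 on WT 38, below 3 of the 4 CKO arrays. None passed in limma, and 1 had an unadjusted p under 0.05. This was Cmas, which activates sialic acid, at 10.51 ± 0.056 over the CKO arrays (SD, n = 4) and 10.63 ± 0.051 over the WT arrays (SD, n = 3), a difference of -0.11 (SE 0.046, adjusted p 0.726) with no overlap between groups. Gfpt2 and Gne, enzymes of hexosamine and sialic acid synthesis, differed by -0.05 (SE 0.048) and -0.05 (SE 0.047). Of 6 lysosomal genes that break glycans down, 0 passed in limma and 0 had an unadjusted p under 0.05 (median 0.0062). Hexa differed by -0.10 (SE 0.069), the sialidase gene Neu4 by 0.08 (SE 0.065) and Ctsa by 0.02 (SE 0.035).

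Of 18 genes that start or build other protein O-glycans, such as O-mannose, O-fucose and xylose, 0 passed in limma and 0 had an unadjusted p under 0.05 (median 0.02). Poglut1, which adds O-glucose to Notch, differed by -0.11 (SE 0.055), the xylosyltransferase gene Xylt2 by 0.09 (SE 0.048) and B4galt7, of the glycosaminoglycan linker, by -0.09 (SE 0.051). Of 21 genes for proteins known to carry O-glycans, 0 passed in limma and 2 had an unadjusted p under 0.05, both higher (median 0.05). Bcan, the proteoglycan brevican, was at 10.12 ± 0.134 over the CKO arrays (SD, n = 4) and 9.90 ± 0.075 over the WT arrays (SD, n = 3), a difference of 0.22 (SE 0.075, adjusted p 0.711) that was 0.09 within lot 2. Notch1 differed by 0.12 (SE 0.046, adjusted p 0.723), and by 0.07 within lot 2. App, the amyloid precursor, differed by -0.09 (SE 0.047). Tnfrsf10b, the death receptor known as an acceptor of Galnt14, differed by 0.06. Across the 7 pathway lists, 6 of 85 genes had an unadjusted p under 0.05 (7.06%, against 6.79% of all genes), and the groups did not overlap for 5 (5.88%, against 8.38%).

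**Figure D4:**
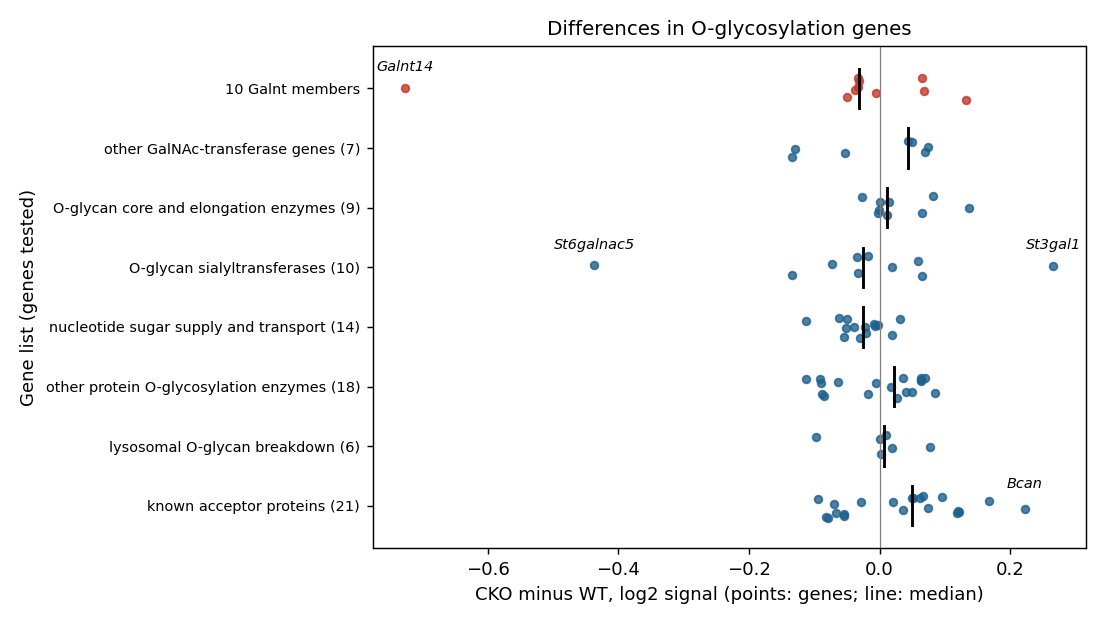
CKO minus WT in log2 signal (horizontal axis) for each tested gene (points) of the Galnt members and 7 O-glycosylation lists, with the list's median as a black line. Galnt14 (-0.73) and St6galnac5 (-0.44) have the most negative values and St3gal1 (0.27) and Bcan (0.22) the most positive, and the list medians lie between -0.03 and 0.05.

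Several measures of the arrays bear on these values. Nr2f1 itself was at 10.68 ± 0.084 over the CKO arrays (SD, n = 4) and 11.04 ± 0.143 over the WT arrays (SD, n = 3), a difference of -0.36 (SE 0.074, adjusted p 0.435), and whether its probe set lies in the deleted part is not known here. Neurod6, the locus that carries Nex-Cre, differed by -0.20 (SE 0.057, adjusted p 0.711). Markers of neocortical neurons, 8 tested, averaged 11.80 to 11.89 in CKO and 11.75 to 11.91 in WT, well above the floor in every sample. This average joins opposed changes. At an unadjusted p under 0.05 in limma, Tbr1 (0.14) and Bcl11b (0.15) were higher and Neurod6 (-0.20) was lower. Among all genes 4.17% were higher and 2.61% lower at that level, and 0 of the 8 passed the threshold. The difference was positive for all 9 striatal markers tested, where 41.1% of all genes were negative. Of the 9, 6 had an unadjusted p under 0.05 and none passed the threshold in limma. Among all genes 4.17% were higher at that unadjusted level. The striatal list averages were 8.83 to 9.22 in CKO against 8.54 to 8.71 in WT, and 1 further marker, Tac1, was under the floor. WT 27, the highest array for Galnt14, was the lowest for this list. Among the CKO arrays, CKO 4 was the lowest for both Galnt14 and this list. The part of striatal cells in the difference of Galnt14 was not tested. All 11 markers of dividing cells (11.09 to 11.14 in CKO, 10.90 to 11.06 in WT) and all 9 of meninges and choroid plexus (8.51 to 8.74 in CKO, 8.39 to 8.53 in WT) had positive differences too. Of these markers, 6 and 3 had an unadjusted p under 0.05 in limma, again beside 4.17% of all genes. Their part in the difference of Galnt14 was not tested. Interneuron (9.94 to 10.30 in CKO, 10.04 to 10.15 in WT), layer 5 (10.19 to 10.40, 10.36 to 10.44) and subplate markers (8.85 to 8.96, 8.88 to 9.00) overlapped between the groups as list averages. These averages join opposed changes. In each list, 2 genes were higher and 2 lower at an unadjusted p under 0.05 in limma (4.17% and 2.61% of all genes). For layer 5 these were Bcl11b (0.15), S100a10 (0.51), Nefm (-0.77) and Nefl (-0.98). For interneurons they were Dlx2 (0.51), Dlx5 (0.39), Npy (-0.51) and Htr3a (-0.60). In these 2 lists 0 genes passed the threshold. The subplate list held 1 gene past the threshold in limma, the potassium channel subunit gene Kcnab1. It fell by 0.58 (SE 0.060, adjusted p 0.0345) with no overlap between groups. The other genes of this list at an unadjusted p under 0.05 in limma were Nr4a2 (-0.33), Nxph4 (0.40) and Drd1 (0.19). Of its 11 genes tested, 6 were positive and 5 negative. The part of subplate cells in the difference of Galnt14 was not tested. Microglial, endothelial, red blood cell, thalamic and hippocampal lists overlapped as well, each with 0 members past the threshold in limma. At an unadjusted p under 0.05 in limma, the microglial gene Aif1 (-0.36) was lower and the thalamic gene Plekhg1 (0.22) higher. The endothelial, red blood cell and hippocampal lists held 0 such genes. Relative to its mean over the arrays, the red blood cell average was -0.75 on WT 38, its lowest array. WT 38 stood apart on the first principal component (27.7% of the variance), and without it Galnt14 differed by -0.74. WT 6 lay farthest out on the second (23.3%), and without WT 6 Galnt14 differed by -0.84.

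The identifiers of the arrays share leading digits in 3 sets, here called lots; what a lot stands for is not given in the labels. Lot 1 held 2 CKO arrays, lot 2 held 2 CKO and 2 WT arrays and lot 3 held 1 WT array. Galnt14 differed by -0.84 within lot 2, where both CKO arrays (7.93 and 8.04) lay below both WT arrays (8.96 and 8.69). Leaving out 1 array at a time gave between -0.84 without WT 6 and -0.60 without WT 27.

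**Figure D5:**
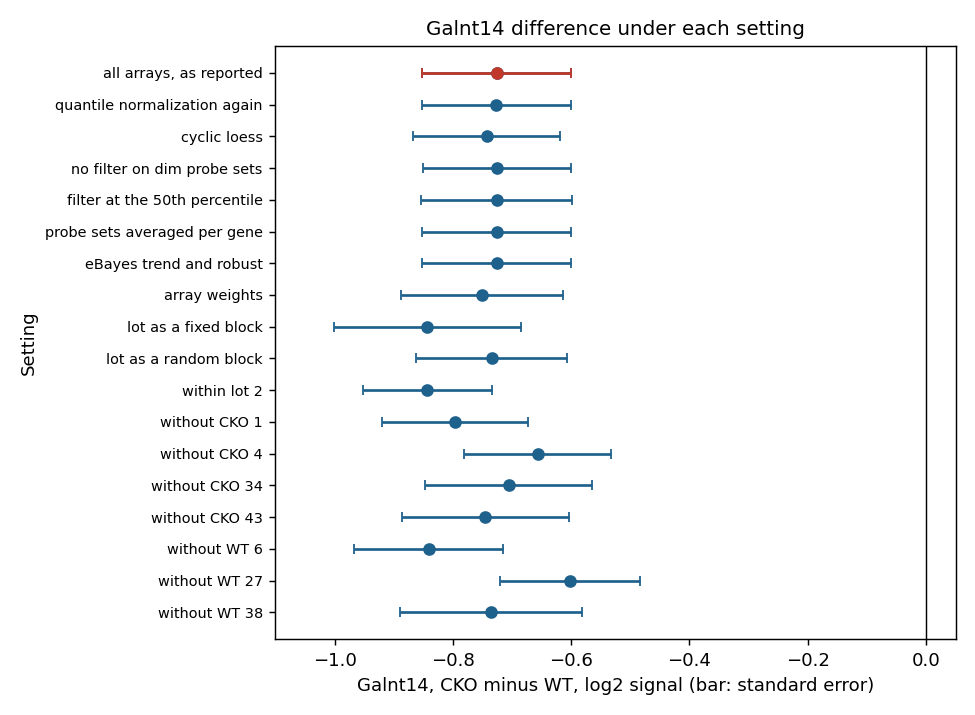
CKO minus WT in log2 signal of Galnt14 (horizontal axis), with its standard error (bar), over all arrays (top) and under each other setting. The values lie between -0.84, within lot 2, and -0.60, without WT 27.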

How the data were processed

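The deposited values are log2 signals; the submitters' processing notes name RMA and Affymetrix Expression Console, without a version or genome build. RMA quantile-normalizes the arrays, so a change shared by most genes would not be seen. The platform annotation gave 1 symbol to 21786 of the 35468 probe sets, several to 1621 and none to 12061. Probe sets with 1 symbol and a mean at or above the 25th percentile (log2 6.84) were kept, the brightest per symbol, which left 16144 genes. All 10 members matched the RefSeq gene table by Entrez identifier.

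The genotypes were compared in limma 3.58.1 (R 4.3.3), without covariates, on all 7 arrays (degrees of freedom: 5 residual, 3.28 prior), with Benjamini-Hochberg adjustment over all genes. The number of arrays limits the precision. Motifs were searched in Python 3.11.15 and figures drawn with matplotlib 3.10.9. The members and gene lists were chosen with earlier results of these data known. Named genes were all members, the 3 smallest p-values of each pathway list the 5 genes most correlated with Galnt14, Nr2f1 and Neurod6; others were chosen after their values were seen. Alternatives were other normalizations, filters, variance models, array weights, lot and leaving out each array.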

Additional observations from a re-analysis of the deposited data

Results flagged for a closer look

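Within the 4 CKO arrays, 1 array stood far from the other 3 for 5 of 38 genes examined, by the gap to its nearest neighbour as a share of the group's range; chance alone flags about 5% of groups. Galnt2 was highest on CKO 1, with a share of 0.833. CKO 34 was the array concerned for the other 4 genes. It was the highest for B4galt1 (0.879) and St3gal1 (0.874) and the lowest for B4galt7 (0.837) and Notch1 (0.921).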

How the results depend on the processing

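Galnt14 stayed negative in all 17 alternatives, from -0.84 to -0.60. Because its groups did not overlap, leaving out or weighting arrays could not turn the sign. The filters, the averaging of probe sets and the variance model left the difference at -0.73. These settings describe the size of a difference the family was picked for and do not test it. Of the 9 other members, 0 passed limma's threshold in any alternative. The filter at the 50th percentile tested 7 of the 9 and left out Galnt3 and Galnt13. Without WT 38, 1 of the 9 had an unadjusted p under 0.05 in limma, and in the 16 other alternatives 0 had. The number of genes past the threshold was 4 over all arrays, 1 with cyclic loess, 1 with array weights, 0 with a fixed term for lot (limma; 611 genes had an unadjusted p under 0.05) and 0 within lot 2 (485), and 1 to 6 when 1 array was left out (6 without CKO 1, 1 without any other array); the cause was not tested. Signs turned for values near 0. With lot as a fixed block and within lot 2, which give the same differences, Galnt13 was 0.0071, B4galt5 -0.0020, B3gnt6 -0.041 and Neu4 -0.019. Leaving out 1 array gave -0.042 to 0.032 for Galnt13 (positive without CKO 4, 0.032, CKO 43, 0.023, or WT 27, 0.025), -0.093 to 0.0055 for Galnt1 (positive without WT 6) and -0.062 to 0.021 for Galnt7 (positive without WT 27). No member had another probe set to try. No paired analysis was possible because the groups share no replicate number.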
